A study of Mus musculus with 8 samples.

Results

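The 10 genes described here are the Notch receptors Notch1, Notch2, Notch3 and Notch4, the ligands Dll1, Dll4, Jag1 and Jag2, and the transcription factors Hes1 and Hey1, which Notch signalling switches on in many tissues. They were chosen by name from the 19938 mouse genes measured by a probe set with a single gene symbol. Each of the 10 had exactly 1 such probe set, so none had to be chosen among several. Expression was measured in whole uteri of 4 Foxa2-deleted females (PgrCre/+ Foxa2flox/flox) and 4 control females (Pgr+/+ Foxa2+/+), with 1 microarray per uterus. All females had been bred to vasectomized wild type males, and the uteri were collected on day 3.5 of pseudopregnancy, with the day of the plug counted as day 0.5. The labels state neither age nor strain. The Cre recombinase stands in 1 allele of the progesterone receptor gene Pgr, so it acts in cells that have used Pgr, and the control females carried neither Cre nor floxed alleles. Loss of Foxa2, the Cre and the altered Pgr allele therefore cannot be told apart.

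Notch receptors are cell surface proteins that are activated by Delta-like or Jagged ligands on a touching cell. Ligand binding exposes the receptor to cutting by an ADAM protease and then by gamma-secretase, and the freed intracellular part enters the nucleus, joins the DNA-binding protein RBPJ and a Mastermind coactivator, and raises the transcription of Hes and Hey genes. The HES and HEY proteins are repressors of the basic helix-loop-helix family. In the mouse uterus Notch1 is known for a part in the decidual differentiation of stromal cells. In blood vessels Notch1, Notch4 and Dll4 are known from endothelium, and Notch3 from the vascular smooth muscle cells and pericytes that wrap it.

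The Foxa2 probe set read 8.22, 8.20, 8.21 and 8.21 log2 intensity in Foxa2-deleted uteri, against 8.61, 8.82, 8.74 and 8.73 in controls, so the arrays followed their labels, although the place of the probes relative to the floxed exons is unknown. Over all genes, 2209 of 19938 (11.1%) passed an adjusted p of 0.05 in limma, 898 of them (4.5%) higher and 1311 (6.58%) lower in Foxa2-deleted uteri, and the split was 1082 higher and 982 lower when each array was centred on its median. Foxa2-deleted arrays resembled each other less, with correlations across genes between 0.981 and 0.990, against 0.996 and 0.997 among controls. Replicate numbers in the labels stand for different animals, and levels below are log2 intensities, for which no detection call is at hand.

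Of the 10 Notch genes, 3 fell in Foxa2-deleted uteri, none rose and 7 did not pass the test. The 3 were the receptors Notch3 and Notch1 and the ligand Jag2, which were 1.47-fold, 1.28-fold and 1.33-fold lower. This is 30% of the 10, beside 11.1% called in either direction and 6.58% called lower over all genes. In these same 3 genes all 4 Foxa2-deleted values lay below all 4 control values, a separation found downwards in 11.6% and in either direction in 21.1% of all genes. None of the 10 passed the test with a change of at least 1.5-fold, as 3.28% of all genes did (limma; none of the 10 changed by that much at any p). Over the 10 genes the median log2 change was -0.12, with 7 below 0 and 3 above, while the median over all genes was 0.01. In whole tissue, fewer cells of a type and less RNA per cell cannot be told apart.

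**Figure D1:**
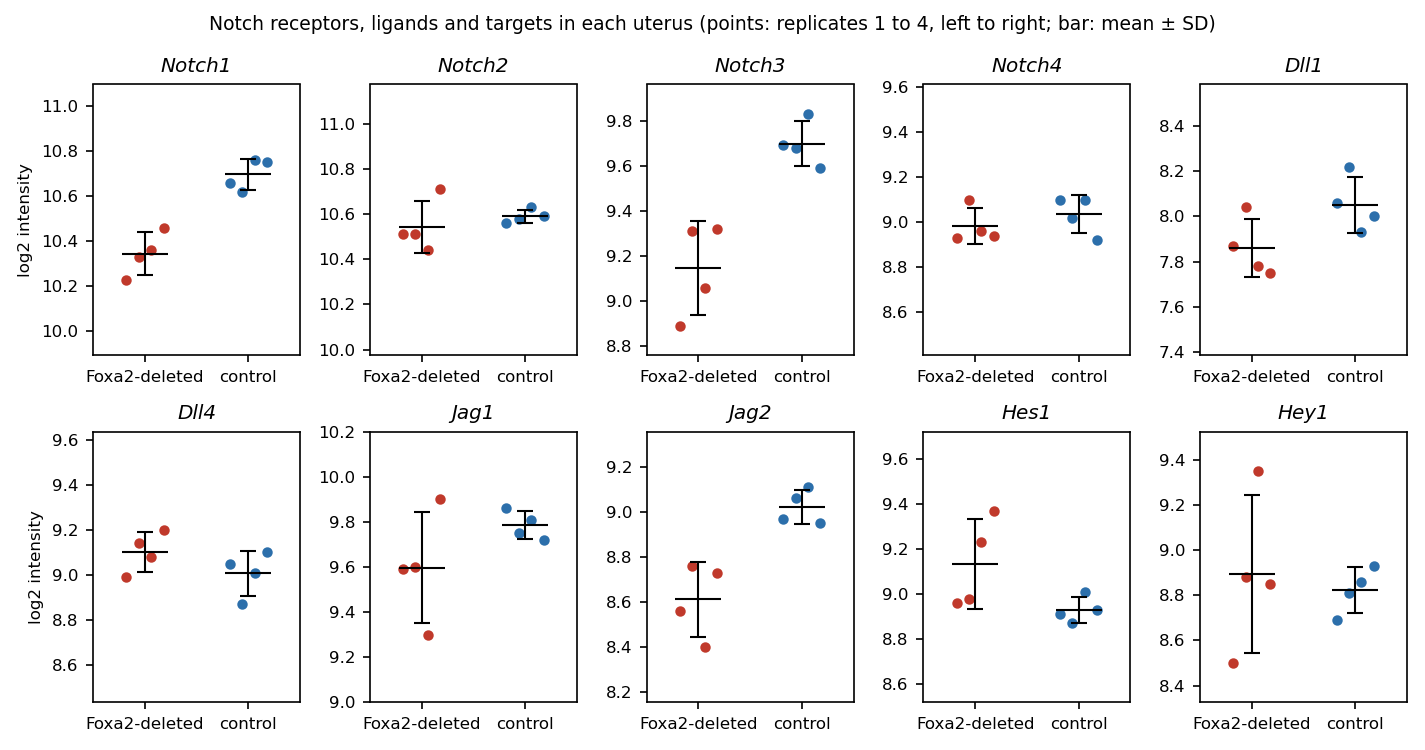
Log2 intensity (vertical axis, each panel spanning the same 1.2 units) of the 10 Notch genes in 4 Foxa2-deleted uteri (red, left) and 4 control uteri (blue, right), with points for replicates 1 to 4 and bars for the mean ± SD. The groups are apart in Notch1, Notch3 and Jag2 and overlap in the other genes.

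Among the receptors the lower level was seen in Notch3 and Notch1. Notch3, the receptor of mural cells of vessels, read 8.89, 9.31, 9.06 and 9.32 in Foxa2-deleted replicates 1 to 4, against 9.69, 9.68, 9.83 and 9.59 in control replicates 1 to 4. Every Foxa2-deleted uterus lay below every control, with replicates 1 and 3 the lowest. The mean was 9.15 ± 0.21 in Foxa2-deleted uteri and 9.70 ± 0.10 in controls (SD, n = 4 each), and the log2 change was -0.55 (SE 0.10, 95% confidence interval -0.78 to -0.32, limma adjusted p = 0.0158). The call was lost without control replicate 2 (log2 change -0.56, limma adjusted p = 0.0515) and without control replicate 3 (log2 change -0.51, limma adjusted p = 0.0526), and held with any other array left out.

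Notch1, the receptor linked to decidual differentiation, read 10.23, 10.33, 10.36 and 10.46 in Foxa2-deleted uteri, against 10.66, 10.62, 10.76 and 10.75 in controls. The groups did not overlap, and the nearest pair of values was Foxa2-deleted replicate 4 and control replicate 2. The mean was 10.35 ± 0.09 in Foxa2-deleted uteri and 10.70 ± 0.07 in controls (SD, n = 4 each), a log2 change of -0.35 (SE 0.06, interval -0.49 to -0.22, limma adjusted p = 0.0125). Among the 3 lower genes this change had the smallest SE, and its call held with each of the 8 arrays left out in turn, with limma adjusted p between 0.0102 and 0.0486.

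The other two receptors did not pass the test. Notch2, which is widely expressed, read 10.51, 10.51, 10.44 and 10.71 in Foxa2-deleted uteri, against 10.56, 10.58, 10.63 and 10.59 in controls. One Foxa2-deleted uterus, replicate 4, lay above all controls and the others below them. The log2 change was -0.05 (interval -0.19 to 0.09, limma adjusted p = 0.619). Notch4, a receptor of endothelium, read 8.93, 9.10, 8.96 and 8.94 in Foxa2-deleted uteri, against 9.10, 9.02, 9.10 and 8.92 in controls, and the groups overlapped over nearly their whole range. Its log2 change was -0.05 (interval -0.19 to 0.08, limma adjusted p = 0.573), and it was 0.001 after cyclic loess scaling. Both intervals leave out the sizes found for Notch1 and Notch3.

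Of the ligands, Jag2 alone was called lower. Jag2 encodes a Jagged ligand, and read 8.56, 8.76, 8.40 and 8.73 in Foxa2-deleted uteri, against 8.97, 9.06, 9.11 and 8.95 in controls. All Foxa2-deleted uteri lay below all controls, replicate 3 farthest. The mean was 8.61 ± 0.17 in Foxa2-deleted uteri and 9.02 ± 0.08 in controls (SD, n = 4 each), a log2 change of -0.41 (SE 0.08, interval -0.60 to -0.22, limma adjusted p = 0.0214). The call was lost without control replicate 2, 3 or 4 (limma adjusted p = 0.0699, 0.0686 and 0.0539) and without Foxa2-deleted replicate 1 (limma adjusted p = 0.0537), with log2 changes between -0.43 and -0.38 in these 4 fits.

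Jag1, the other Jagged ligand, read 9.59, 9.60, 9.30 and 9.90 in Foxa2-deleted uteri, against 9.86, 9.75, 9.81 and 9.72 in controls. Foxa2-deleted replicates 1 to 3 lay below every control, while replicate 4 lay above them all. The log2 change was -0.19 (interval -0.44 to 0.06, limma adjusted p = 0.271). This interval takes in the log2 change found for Jag2, -0.41, so a fall of that size in Jag1 is not excluded. With 1 array left out the log2 change ran from -0.29 without Foxa2-deleted replicate 4 (limma adjusted p = 0.0518) to -0.09 without Foxa2-deleted replicate 3 (limma adjusted p = 0.513).

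Dll1, a Delta-like ligand, read 7.87, 8.04, 7.78 and 7.75 in Foxa2-deleted uteri, against 8.06, 8.22, 7.93 and 8.0 in controls. The groups overlapped through Foxa2-deleted replicate 2. Its log2 change was -0.19 (interval -0.38 to -0.01, unadjusted p = 0.045 and adjusted p = 0.149 in limma). Dll4, the Delta-like ligand of endothelium, read 8.99, 9.14, 9.08 and 9.20 in Foxa2-deleted uteri, against 9.05, 8.87, 9.01 and 9.10 in controls, and was the 1 ligand with a mean above that of controls. The groups overlapped, and the log2 change was 0.10 (interval -0.05 to 0.24, limma adjusted p = 0.348).

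Neither of the target genes passed the test, and both means were above those of controls. Hes1, the repressor most widely used to read out Notch activity, read 8.96, 8.98, 9.23 and 9.37 in Foxa2-deleted uteri, against 8.91, 8.87, 9.01 and 8.93 in controls. Foxa2-deleted replicates 3 and 4 lay above all controls, and replicates 1 and 2 were within the range of controls. The log2 change was 0.21 (interval -0.01 to 0.42, limma adjusted p = 0.168), and it stayed above 0 with each array left out, between 0.13 and 0.26. Hey1, a target of Notch in vessels, read 8.50, 8.88, 9.35 and 8.85 in Foxa2-deleted uteri, against 8.69, 8.81, 8.86 and 8.93 in controls. Foxa2-deleted replicate 1 was the lowest and replicate 3 the highest of all 8 uteri. Its log2 change was 0.07 (interval -0.28 to 0.42, limma adjusted p = 0.770), and -0.08 without Foxa2-deleted replicate 3.

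**Figure D2:**
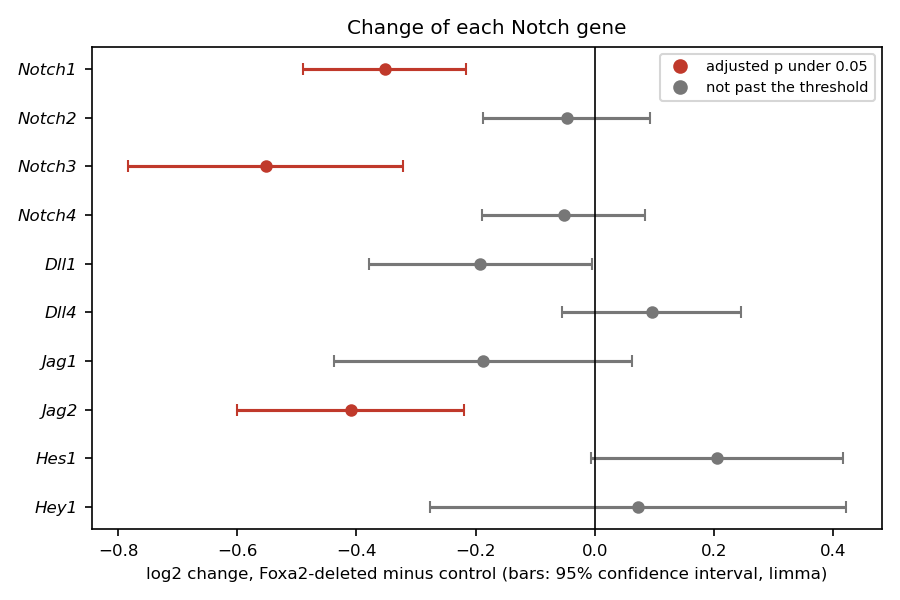
Log2 change (horizontal axis, Foxa2-deleted minus control) of each Notch gene with its 95% confidence interval from limma, red where the adjusted p was under 0.05. The intervals of Notch1, Notch3 and Jag2 lie wholly below -0.2, and the interval of Hey1 reaches from -0.28 to 0.42.

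Spread among animals was uneven. In 8 of the 10 genes the SD was larger among Foxa2-deleted uteri than among controls, as it was in 70.3% of all genes. The median SD over the 10 was 0.15 in Foxa2-deleted uteri and 0.08 in controls, beside 0.10 and 0.07 over all genes. Hey1 had the largest SD of the 10, 0.35 in Foxa2-deleted uteri against 0.10 in controls. No single Foxa2-deleted uterus was lowest throughout. Replicate 1 had the lowest reading of Notch1, Notch3, Notch4, Dll4, Hes1 and Hey1, replicate 3 that of Notch2, Jag1 and Jag2, and replicate 4 that of Dll1. The mean of the 10 genes, relative to the control mean, was -0.26, -0.10, -0.17 and -0.04 in Foxa2-deleted replicates 1 to 4, while controls lay between -0.02 and 0.04.

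Promoter sequences are shown for the 3 genes that fell, to set side by side the sequence at their start sites. They come from RefSeq (build GRCm38.p6, 250 bases before to 50 after the annotated start, 5′ to 3′ on the strand of the gene). All 3 genes lie on the minus strand. Capitals mark matches to 4 motifs searched on both strands, which were TGGGAA (core of the RBPJ site), TGTTTAC (core of the FOXA site), CACGTG (an E box, which HEY proteins are known to bind) and CACGCG, a class C site that HES and HEY proteins are known to bind.
Notch1, chr2:26503773-26504072: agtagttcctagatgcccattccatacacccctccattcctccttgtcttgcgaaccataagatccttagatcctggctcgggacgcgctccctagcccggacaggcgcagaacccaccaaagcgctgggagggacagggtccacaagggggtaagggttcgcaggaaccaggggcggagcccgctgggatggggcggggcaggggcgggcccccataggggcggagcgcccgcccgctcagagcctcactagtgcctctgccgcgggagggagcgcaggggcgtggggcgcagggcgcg
Notch3, chr17:32166841-32167140: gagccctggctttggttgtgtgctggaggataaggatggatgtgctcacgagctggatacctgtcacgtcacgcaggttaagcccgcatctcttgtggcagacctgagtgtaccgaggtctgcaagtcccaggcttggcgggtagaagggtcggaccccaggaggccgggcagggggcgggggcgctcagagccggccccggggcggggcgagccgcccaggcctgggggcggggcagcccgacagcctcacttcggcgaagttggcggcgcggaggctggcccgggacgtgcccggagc
Jag2, chr12:112929446-112929745: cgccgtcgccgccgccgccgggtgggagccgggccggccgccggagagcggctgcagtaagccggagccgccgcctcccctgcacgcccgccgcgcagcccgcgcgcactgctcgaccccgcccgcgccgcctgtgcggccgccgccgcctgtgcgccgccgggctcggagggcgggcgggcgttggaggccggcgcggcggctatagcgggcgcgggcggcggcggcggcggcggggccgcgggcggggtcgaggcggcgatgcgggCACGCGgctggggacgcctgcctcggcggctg
The windows of Notch1 and Notch3 held none of the 4 motifs, and that of Jag2 held CACGCG once, with its first base at position 19 downstream of the start. The 3 windows were rich in G and C, at 68.3% in Notch1, 70.0% in Notch3 and 86.0% in Jag2, against a median of 52.7% over all 32851 promoters, and they held 23, 25 and 63 CpG dinucleotides against a median of 7. This was not particular to the genes that fell. The windows found for Notch genes that did not pass ran from 55.7% in Jag1 to 73.0% in Notch2. They held from 5 CpG dinucleotides in Notch4 to 41 in Notch2.

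The RefSeq table held 9 promoters for 8 of the 10 genes, 2 of them for Dll1, and Hes1 and Hey1 were not matched. CACGCG was found in those of Notch2, Dll4 and Jag1 and in 1 of the 2 of Dll1, so that it stood in promoters of genes that passed the test and of genes that did not. Over all promoters, CACGCG was present in 9.27%, the E box CACGTG in 7.15%, TGGGAA in 25.6% and TGTTTAC in 3.65%. These shares were not taken over promoters of like CpG content, and CACGCG itself holds CpG dinucleotides. Whether CACGCG is more frequent in Notch promoters than in others of like content was not tested. None of the 9 windows of these 8 genes held the RBPJ core, the FOXA core or the E box, which says only that these letters are not in these 300 bases.

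Differences between the Notch genes were also measured within each uterus, where any scaling shared by an array drops out. For 13 pairs of genes of the same role the log2 difference was taken per array and compared between genotypes by a two-sided exact permutation test, whose smallest possible p with 4 against 4 uteri is 0.029. The pairs share genes, and they were chosen after the values of the genes had been seen. Notch3 minus Notch2 was -1.62, -1.20, -1.38 and -1.39 in Foxa2-deleted uteri, against -0.87, -0.90, -0.80 and -1.0 in controls. Relative to Notch2, Notch3 was thus lower in every Foxa2-deleted uterus than in any control. The difference of the means was -0.51 (exact p = 0.029, adjusted over the 13 pairs 0.074).

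Another 4 pairs were apart in the same way, each at exact p = 0.029 and adjusted p = 0.074. The difference between genotypes was -0.50 for Notch3 minus Notch4, -0.31 for Notch1 minus Notch2, -0.30 for Notch1 minus Notch4 and -0.51 for Jag2 minus Dll4. Each of these 5 pairs set a gene already called lower against a gene not called. They therefore largely restate those calls and are no separate support. How often other pairs of genes are apart in this way was not counted. None of the 13 pairs passed an adjusted p of 0.05. At least 8 of the 13 would have had to reach the smallest possible p for any to do so, so this count says little about whether the genes changed unequally. Notch3 minus Notch1 differed by -0.20 between genotypes (exact p = 0.086, adjusted p = 0.12), with overlapping groups. Jag2 minus Jag1 differed by -0.22 and Jag2 minus Dll1 by -0.22 (exact p = 0.057 and 0.11, adjusted p = 0.093 and 0.15), also with overlap. Notch2 minus Notch4, Jag1 minus Dll1 and Hes1 minus Hey1 differed by 0.01, 0.01 and 0.13 (exact p = 0.94, 0.97 and 0.40). The remaining pairs, Jag1 minus Dll4 and Dll1 minus Dll4, differed by -0.28 and -0.29 (exact p = 0.057 each, adjusted p = 0.093).

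**Figure D3:**
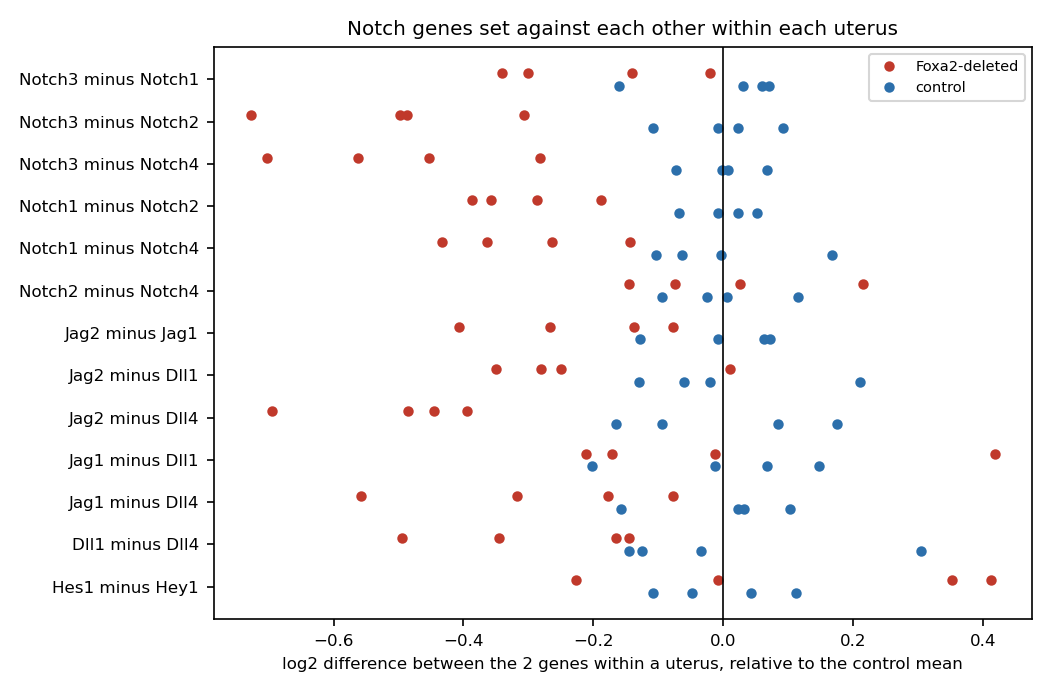
Log2 difference between a pair of Notch genes within each uterus (horizontal axis, relative to the control mean of that pair), with 4 Foxa2-deleted uteri (red, above) and 4 controls (blue, below) per pair. In 5 of the 13 pairs, among them Notch3 minus Notch2 and Jag2 minus Dll4, the groups are apart. Each of the 5 is a gene called lower minus a gene not called.

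The rest of the pathway was described with 5 lists of modifiers, proteases, nuclear partners, antagonists and further targets. Of the 61 genes measured, 3 fell, 1 rose and 57 did not pass, which is 6.56% called, beside 11.1% of all genes. Their median log2 change was -0.03. Under median centring the same count was 2 lower and 2 higher.

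Among 13 genes that modify or bind receptors and ligands, 1 fell and none rose. This was Lfng, a glycosyltransferase that adds sugars to Notch and tunes which ligands it answers, at 9.51, 9.42, 9.49 and 9.30 in Foxa2-deleted uteri, against 9.82, 9.72, 9.59 and 9.88 in controls. The groups were apart, with a log2 change of -0.32 (SE 0.07, limma adjusted p = 0.0303). The call was lost without control replicate 1, 2 or 4 (limma adjusted p = 0.0721, 0.0781 and 0.0903) or Foxa2-deleted replicate 1 (0.0506), with median centring (0.0501) and with cyclic loess (0.059).

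None of 9 proteolysis genes passed in limma, 1 of them at an unadjusted p under 0.05. Ncstn, a gamma-secretase subunit, had a log2 change of 0.27 (limma adjusted p = 0.105) and passed without Foxa2-deleted replicate 2 (log2 change 0.34, limma adjusted p = 0.0348). Aph1c, another subunit, had one of 0.19 (limma adjusted p = 0.244). None of 12 genes of the nuclear complex and its corepressors passed in limma either, 4 of them at an unadjusted p under 0.05. The 2 with the smallest p were the acetyltransferase gene Kat2a and the corepressor gene Spen, with log2 changes of -0.16 and -0.15 (limma adjusted p = 0.0789 each). Rbpj itself, named after its value was seen, had a log2 change of -0.05 (limma adjusted p = 0.726).

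Of 14 genes of turnover and antagonism, 2 fell and none rose. Fbxw7, part of the ubiquitin ligase that marks the Notch intracellular part for breakdown, read 8.33, 8.16, 8.23 and 8.20 in Foxa2-deleted uteri, against 8.46, 8.53, 8.65 and 8.61 in controls, with no overlap. Its log2 change was -0.33 (SE 0.06, limma adjusted p = 0.0141, and 0.0518 without control replicate 4), and -0.21 with its probe sets averaged (limma adjusted p = 0.0378). Dtx4, a Deltex ubiquitin ligase, read 9.47, 9.99, 9.35 and 9.93 in Foxa2-deleted uteri, against 10.17, 10.28, 10.20 and 10.20 in controls. Foxa2-deleted replicates 2 and 4 lay nearest the controls, and the log2 change was -0.53 (SE 0.14, limma adjusted p = 0.0445). The Dtx4 call was lost without any 1 control (limma adjusted p from 0.082 to 0.117), without Foxa2-deleted replicate 1 (0.0993) or replicate 3 (0.0614), with quantile normalization applied again (0.0571), cyclic loess (0.0615) and every row tested (0.0592).

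Of 15 further target genes, 1 rose and none fell, and 7 had an unadjusted p under 0.05 in limma. Bhlhe40, a basic helix-loop-helix repressor known mostly from the circadian clock and hypoxia and a less established Notch target than Hes and Hey genes, read 9.92, 9.58, 10.94 and 10.20 in Foxa2-deleted uteri, against 8.99, 8.82, 8.79 and 8.84 in controls. Every Foxa2-deleted uterus was higher, and the log2 change was 1.30 (SE 0.24, limma adjusted p = 0.0163). The call was lost without control replicate 2, 3 or 4 (limma adjusted p = 0.0557, 0.0547 and 0.0539). The close relatives of Hes1 and Hey1 and the feedback inhibitor Nrarp, named after their values were seen, did not pass. Heyl had a log2 change of -0.39 (limma adjusted p = 0.137), Hey2 one of -0.27 (0.300), Hes5 one of 0.14 (0.166) and Nrarp one of -0.24 (0.191). Myc and Efnb2, likewise named after their values were seen, did not pass either. Their log2 changes were -0.70 and 0.51 (limma adjusted p = 0.102 and 0.0552). Nox1, an oxidase gene also named after its values were seen, had the largest log2 change of the list at 2.33 but a wide spread, with 6.67, 9.31, 11.14 and 9.01 in Foxa2-deleted uteri, against 6.70, 6.88, 6.59 and 6.65 in controls, and did not pass (limma adjusted p = 0.0782).

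**Figure D4:**
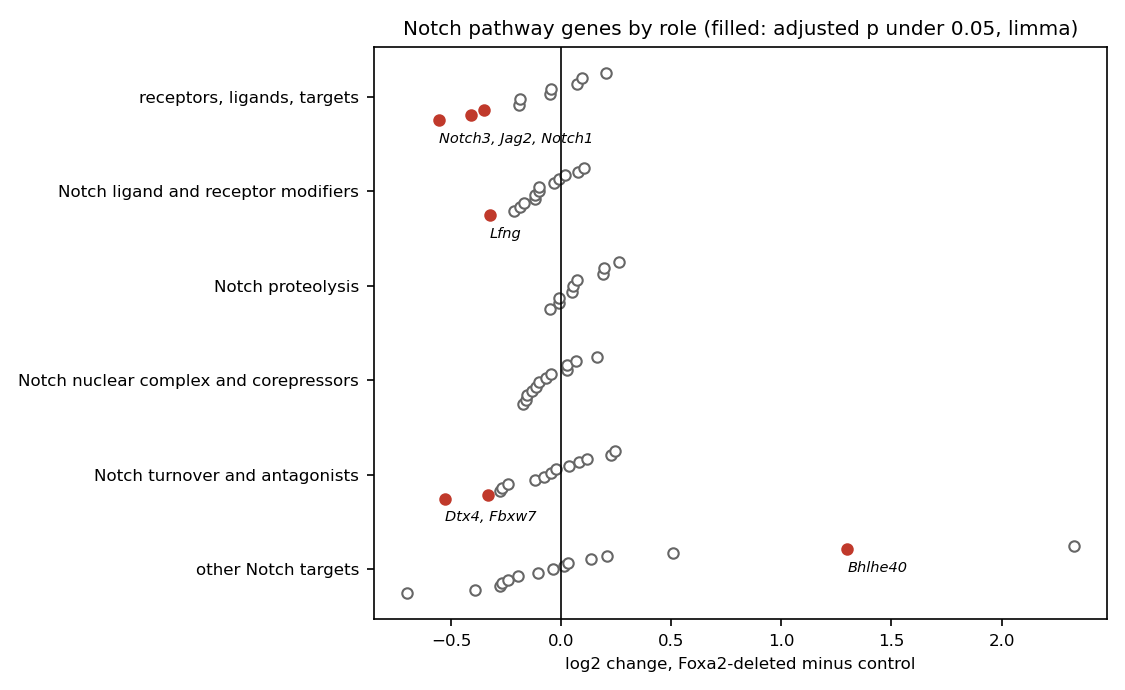
Log2 change (horizontal axis, Foxa2-deleted minus control) of the 10 Notch genes and of the genes in 5 further pathway lists (rows), filled and named where the limma adjusted p was under 0.05. The filled points are 3 of the 10 Notch genes, Lfng, Dtx4 and Fbxw7 to the left of 0 and Bhlhe40 to the right.

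Cell type markers were read on the same arrays, since the Notch genes are used by several cell types of the uterus. The counts called in each list stand beside 4.5% called higher and 6.58% called lower over all genes. Smooth muscle, epithelial and stromal markers were read on every array, with Myh11 between 12.18 and 12.77, Krt8 between 11.42 and 13.0 and Dcn between 13.12 and 13.28 over the 8 uteri. Of 12 endothelium markers, 7 fell and none rose, with a median log2 change of -0.64. The adhesion gene Pecam1 had a log2 change of -0.66 (limma adjusted p = 0.0077) and the receptor gene Tie1 one of -0.70 (limma adjusted p = 0.0106). The mean of the 12, relative to the control mean, was -0.67, -0.27, -0.92 and -0.43 in Foxa2-deleted replicates 1 to 4, and between -0.01 and 0.02 in controls. The part of this in the lower Notch1, Notch3 and Jag2 was not tested.

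Of 8 markers of mural cells, 1 fell and none rose, and their median was 0.11. The pericyte gene Rgs5 was the 1 that fell, at 10.29, 11.16, 9.97 and 10.38 in Foxa2-deleted uteri, against 11.31, 11.27, 11.29 and 11.22 in controls (log2 change -0.82, limma adjusted p = 0.0415). Its call held only without Foxa2-deleted replicate 2 (limma adjusted p = 5.4e-04) among the fits with an array left out, which otherwise gave up to 0.106, and it was lost with every row tested (0.0555). Mcam, another gene of vessel walls, had a log2 change of 0.17 (limma adjusted p = 0.068, and 0.0413 without Foxa2-deleted replicate 4). The mean of the 8 was 0.00, 0.12, -0.13 and -0.03 in Foxa2-deleted replicates 1 to 4 and ran from -0.07 to 0.08 in controls. The part of this list in the lower Notch3 was not tested.

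Of 7 smooth muscle markers 1 rose, Actg2 with a log2 change of 0.51 (limma adjusted p = 0.0449), while Cnn1 had one of 0.41 (0.0687), and passed without Foxa2-deleted replicate 4 (0.0233) and with group weights (0.0476). Actg2 lost its call whichever array was omitted, except Foxa2-deleted replicate 4, (limma adjusted p up to 0.12), with cyclic loess and with every row tested (up to 0.0599). The mean of this list ran from 0.01 to 0.59 in Foxa2-deleted uteri and from -0.06 to 0.14 in controls. Of 10 epithelium markers 5 rose, led by Krt19 and the transcription factor gene Elf3 with log2 changes of 1.86 and 1.78 (limma adjusted p = 0.0034 and 0.0067), and none fell. Another 2 had a log2 change below 0, Cldn3 with -0.47 and Cldn4 with -0.11 (limma adjusted p = 0.151 and 0.476). The mean of the 10 ran from 0.45 to 1.36 in Foxa2-deleted uteri and from -0.10 to 0.09 in controls.

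None of 8 stroma markers passed in limma, 3 of them at an unadjusted p under 0.05. Of the 8, 4 had a log2 change below 0 and 4 above, with a median of -0.105. The 2 with the smallest p, Hoxa11 and Pdgfra, had log2 changes of -0.63 and -0.32 (limma adjusted p = 0.0772 and 0.0805). Both passed without Foxa2-deleted replicate 2 (log2 changes -0.84 and -0.39, limma adjusted p = 0.00508 and 0.0339), and Hoxa11 also with group weights (limma adjusted p = 0.0414). The stroma mean ran from -0.40 to 0.02 in Foxa2-deleted uteri and from -0.01 to 0.01 in controls. Of 7 leukocyte markers 3 fell and none rose. The natural killer cell genes Ncr1 and Nkg7 were among those that fell (log2 changes -1.23 and -1.10, limma adjusted p = 0.0069 and 0.0206). Another 3 of the 7 had a log2 change above 0, the largest being 0.93 in S100a8 (limma adjusted p = 0.0696). The mean of the leukocyte list ran from -0.65 to -0.10 in Foxa2-deleted uteri and from -0.20 to 0.21 in controls. Nkg7 lost its call without any 1 control (limma adjusted p up to 0.0674). None of 4 adipocyte markers passed in limma, 2 of them at an unadjusted p under 0.05, and their mean ran from 0.16 to 1.45 in Foxa2-deleted uteri and from -0.72 to 0.96 in controls. Cidec and Adipoq had log2 changes of 1.32 and 1.11 (limma adjusted p = 0.0756 and 0.146), and Cidec passed without control replicate 1 (limma adjusted p = 0.0401). The part of these lists in the results on the Notch genes was not tested.

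**Figure D5:**
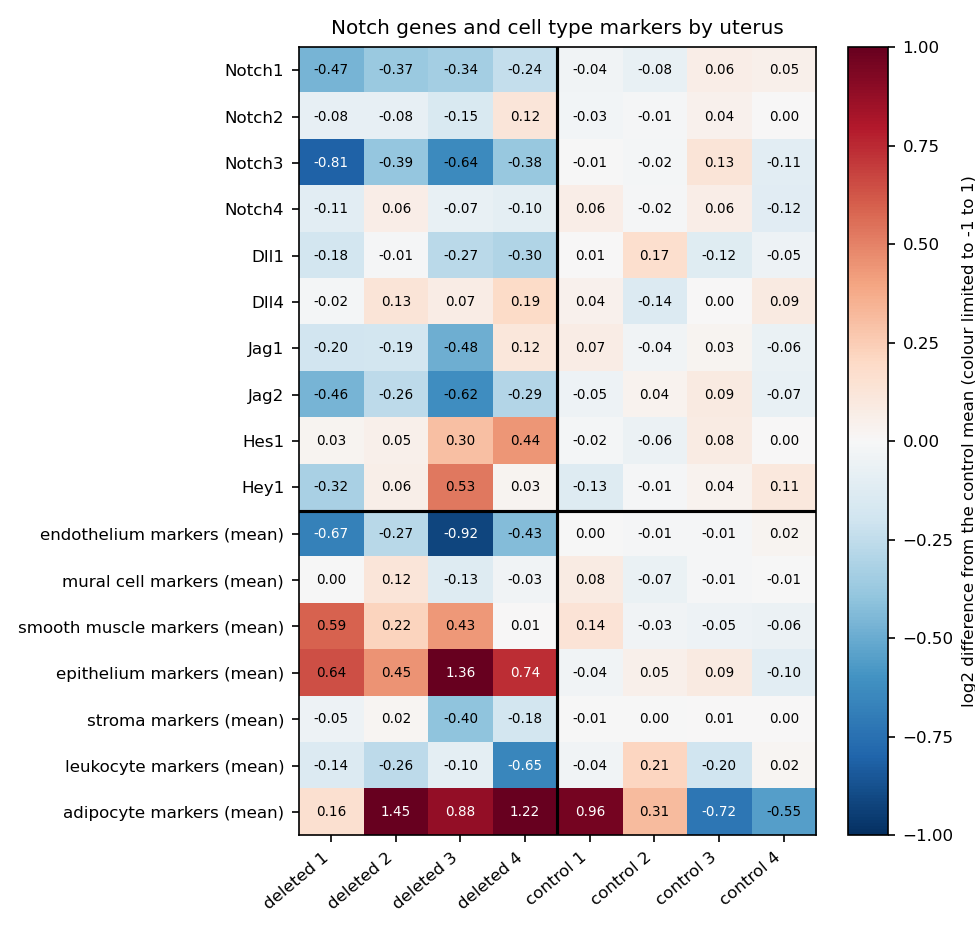
Log2 difference from the control mean (colour and printed value) of each Notch gene, and of the mean of each cell type marker list, in 4 Foxa2-deleted uteri (left) and 4 controls (right). Notch1, Notch3 and Jag2 are below 0 in all 4 Foxa2-deleted uteri, as is Dll1, which alone of these genes did not pass the test. The endothelium and leukocyte lists are below 0 there too, and the epithelium, smooth muscle and adipocyte lists are above 0. In some Foxa2-deleted uteri the leukocyte, smooth muscle and adipocyte lists lie within the range of controls. The mural cell list lies between -0.13 and 0.12 in Foxa2-deleted uteri.

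The genes with the most similar profiles were sought for the 3 Notch genes that fell, by the root mean square difference over the 8 uteri between log2 values centred on the control mean. For Notch3 these were Sema6a, which encodes a transmembrane semaphorin, Gramd1c and Pabpc1l2b, at 0.063, 0.065 and 0.081, and 8 genes in all came within 0.1. For Notch1 they were the zinc finger gene Zfp521, the semaphorin gene Sema6b and Luc7l, at 0.051, 0.052 and 0.053, among 170 genes within 0.1. For Jag2 they were Ushbp1, Rad9b and Fam120c, at 0.044, 0.051 and 0.052, among 157 within 0.1. The comparison covered 18643 genes, and closeness includes the shared difference between genotypes. The log2 changes of these 9 genes ran from -0.55 for Sema6a to -0.34 for Luc7l.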

How the data were processed

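Total RNA (150 ng per uterus) was labelled with biotin for an Affymetrix whole-transcript array, per the labels' protocols. The authors deposited a log2 intensity for each probe set on each array, obtained with RMA, and limma is also named, per the submitters' processing notes. No versions, genome build or annotation date for this step are named there. RMA draws dim probe sets towards a floor, so changes of dim genes are understated, and it would hide a shift shared by most genes. The number of arrays limits the precision.

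Of 35556 rows, 21789 had 1 gene symbol in GEO's platform annotation, 1621 several and 12146 none. Rows with several symbols or none were left out, including 6 that pair Notch4 with another gene. The probe set with the highest mean stood for a gene. The 19938 genes were fitted by genotype with lmFit and eBayes (limma 3.58.1, R 4.3.3), and p-values were adjusted by Benjamini-Hochberg over all of them. The threshold was an adjusted p of 0.05. The fit was tested on simulated data. Pairs of genes were compared with exact permutation tests (scipy 1.17.1).

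The members, the lists and the rule for named genes were chosen with earlier results of these data known. Named were the 10 Notch genes, Foxa2 and Pgr, every other pathway gene past the threshold (or the 2 with the smallest p of a list), the 2 leading genes of each marker list, and the 3 most similar profiles per Notch gene that fell. Pgr had a log2 change of 0.37 (limma adjusted p = 0.0428), and that call was lost on omitting a control or Foxa2-deleted replicate 1 or 4 (up to 0.105) and under 3 alternatives (up to 0.0684). Of 64 other pathway genes listed, 61 were measured. Dtx1 and Nrarp stood in 2 lists each. Alternatives covered scaling, filters on dim genes, the choice of probe set, the rows tested, the variance model, group weights, a replicate block, the threshold and leaving out each array.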

Additional observations from a re-analysis of the deposited data

Results flagged for a closer look

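Among the 43 genes named, each tested in both genotypes (86 groups of 4 values), 3 groups held a value far from the others, by the gap to its neighbour as a share of the range. Chance alone flags about 1 in 20 groups. All 3 were in controls, and none was in a Notch gene. Control replicate 1 stood apart in Cnn1 at 12.09 log2 intensity (share 0.875), control replicate 4 in Hoxa11 at 10.66 (share 0.889) and control replicate 3 in Ushbp1 at 9.15 (share 0.9).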

How the results depend on the processing

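The 3 Notch genes called (Notch1, Notch3 and Jag2) stayed past the threshold under 3 other scalings, 2 filters on dim genes, averaged probe sets, every row tested, a trended robust variance and group weights, with log2 changes from -0.35 to -0.32 for Notch1, -0.55 to -0.49 for Notch3 and -0.41 to -0.37 for Jag2. With 1 array left out the count was 1 to 3, lowest without control replicate 2 or 3, and with at least 1.5-fold required it was 0. The count over all genes was 556 to 3059 with 1 array left out, 653 with at least 1.5-fold and 4332 at an adjusted p under 0.10. That of the 61 other pathway genes was 0 (without control replicate 4, 18 at an unadjusted p under 0.05 in limma) to 13 (without Foxa2-deleted replicate 2) with 1 array left out, 2 with cyclic loess, 1 with at least 1.5-fold and 13 at an adjusted p under 0.10. The replicate block gave 1062 genes over all, 2 of the Notch genes and 2 other pathway genes; Jag2 then had an adjusted p of 0.0573. Same-numbered uteri correlated between -0.051 and 0.057 in their deviations from the group means, and not every uterus correlated best with its own number. No pairing by number was thus seen over all genes. These correlations cannot exclude a pairing that touches few genes. Notch4 turned to 0.00139 with cyclic loess, and Hey1 to -0.0792 without Foxa2-deleted replicate 3, its lowest value with 1 array left out, the highest being 0.204. Of 767 refits of named genes, 662 kept direction and side of the threshold, 95 lost and 8 gained a call, and 2 turned sign. Causes were not tested. Without detection calls, signal over background is unknown.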
